A study of Mus musculus with 2 samples.

Results

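The T and NK cells of injured mouse spinal cord were 67 of 5145 cells kept from a single-cell RNA sequencing experiment. They were chosen by their transcripts: a member held at least 4 UMIs (unique molecular identifiers, each standing for 1 captured mRNA molecule) of Cd3d, Cd3e, Cd3g, Trac, Trbc2 and Nkg7 in sum, at most 5 UMIs of C1qa and C1qb, under 10 of S100a8 and S100a9 and under 2 of Cd79a. The upper limits were set on genes of macrophages, neutrophils and B cells. A barcode counted as a cell with 500 or more genes, 1000 or more UMIs and no more than 15% mitochondrial UMIs.

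The study compared spinal cord 5 days after injury in mice given an HDAC3 inhibitor or the vehicle without it, with 1 library per group, both made with the 10x Genomics 3′ version 3 kit. HDAC3 is a histone deacetylase that works within a corepressor complex. The inhibitor compound, the strain, sex and age of the mice, the kind of injury and the number of animals behind a library are not stated in the labels. With 1 library per group no difference between the groups could be tested, so all values below describe these libraries, and their 95% intervals cover counting error only.

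T cells recognise peptides on major histocompatibility complex (MHC) molecules through a T cell receptor that signals through the CD3 chains. CD4 T cells mainly direct other immune cells, whereas CD8 T cells and natural killer (NK) cells kill target cells by releasing perforin and granzymes. NK cells carry no rearranged T cell receptor and are steered by activating and inhibitory surface receptors. Both lineages enter the injured spinal cord from blood in far smaller numbers than monocytes and neutrophils.

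The libraries held 3423 barcodes from inhibitor-treated cord and 2523 from vehicle-treated cord, of which 2975 and 2170 were kept, with a median of 9775 and 10252.5 UMIs per cell. Members were shallower, with a median of 5076.5 UMIs (1000 to 29481) in the inhibitor library and 7828 (2263 to 19558) in the vehicle library. Doublet calling marked 21 and 6 cells, none of them a member, and none of the 10 barcodes present in both libraries was a member.

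Few cells lay near the threshold. Members held a median of 18.5 UMIs of the 6 rule genes in the inhibitor library (5 to 64) and 29 in the vehicle library (7 to 73). Just outside the threshold, at exactly 3 UMIs, were 3 inhibitor cells and no vehicle cell, and 2 of those 3 held Nkg7 alone. Just inside it, no cell of either library had exactly 4 UMIs, and 3 inhibitor cells and no vehicle cell had exactly 5.

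Genes outside the rule were used to check the label. All 17 genes of a T cell marker list, 5 of them rule genes, were detected in the T group of both libraries. Of 15 NK markers, 8 of them used for the NK cut, 15 and 12 were detected in NK cells of the inhibitor and the vehicle library. The lists were not exclusive, since 11 of the 17 T cell genes had UMIs in NK cells (97 UMIs, 1428 CPM, against 6300 CPM in T cells) and 12 and 10 of the 15 NK markers had UMIs in T cells. Cd3e, Cd3g, Cd5, Cd6, Bcl11b and Themis were at 0 in NK cells. No member had a UMI of P2ry12, Tmem119 or Siglech, the defining markers of microglia. The 3 T or NK members with the most UMIs, an inhibitor CD4 T cell (29481 UMIs), an inhibitor NK cell (20571) and a vehicle CD8 T cell (19558), also held 207, 108 and 96 UMIs of the endothelial genes Cldn5 and Flt1. They carried 15.4% of all member UMIs in the inhibitor library and 15% in the vehicle library. Where stated, values are also given without these 3 cells, a setting that was not planned beforehand.

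By CD3 and receptor transcripts, 51 members formed a T group, 12 formed an NK group and 4 fell in neither. The T group was cut at 2 or more UMIs of Cd3d, Cd3e and Cd3g with at least 1 UMI of a T cell receptor constant gene. The NK group took the remaining cells with at least 2 UMIs of 8 NK receptor genes (Klrb1c, Ncr1, Klre1, Klra4, Klra7, Klra8, Klra9 and Klri2). These cuts are on counts, so the levels of these genes describe the groups and are no result. The CD3 genes lie together on mouse chromosome 9, and Klrb1c, Klre1, Klri2 and the Klra genes in the NK gene region of chromosome 6.

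The groups were apart on these genes, with 1 cell between them. NK cells of the inhibitor library held 10 to 32 NK receptor UMIs and the single vehicle NK cell held 19, with 1 CD3 UMI in 1 of the 12 cells. In the T group the median NK receptor count was 0 in both libraries. Exactly 2 CD3 UMIs, the lowest count allowed, were found in 3 inhibitor and 1 vehicle T cells. The cell closest to both groups was an inhibitor cell that the cut placed in the T group. It held 2 CD3 UMIs, 14 NK receptor UMIs, 9 of Trbc2, 8 of Tyrobp and none of Trac. It also held 9 UMIs of Fcer1g and 7 of Irf8, genes that were higher in NK cells. This cell may be an NK cell, but it is counted among the T cells below. Trbc1, a constant gene of the T cell receptor beta chain, had 19 UMIs in 7 of the 12 NK cells. It was part of the T cut, which was applied first, but not one of the 8 NK receptor genes. Trbc1 and Trbc2 are near-identical copies, and how reads matching several genes were counted was not stated, so their split is uncertain, as it is among the Klra genes.

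**Figure D1:**
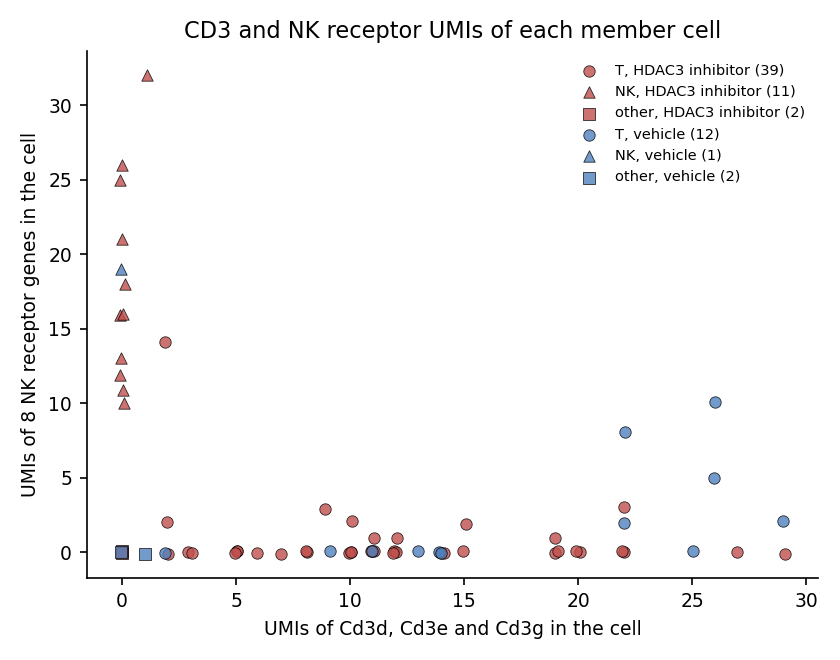
Each point is 1 member, placed by its UMIs of Cd3d, Cd3e and Cd3g (horizontal axis) and its UMIs of the 8 NK receptor genes (vertical axis), coloured by library and marked by group, with a small random shift to separate equal values. The 12 NK cells sit at 10 to 32 NK receptor UMIs with at most 1 CD3 UMI. Between the groups lies 1 inhibitor cell with 2 CD3 and 14 NK receptor UMIs, marked as T by the cut.

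By co-receptor UMIs, CD8 cells were the most frequent kind of T cell in both libraries, but CD4 cells were easier to miss. CD8 cells (at least 1 UMI of Cd8a or Cd8b1 and none of Cd4) numbered 17 of 39 T cells in the inhibitor library and 5 of 12 in the vehicle library. CD4 cells numbered 10 and 4, cells with neither co-receptor 12 and 2, and 1 vehicle cell held both. A Foxp3 UMI, the marker of regulatory T cells, was found in 0 of 39 and 0 of 12 T cells. This allows up to 7.69% and 25% of cells with a UMI (3 cells of the total) and sets no limit on cells that express the gene. Of 6 listed regulatory T cell genes, the other 5 (Il2ra, Ctla4, Ikzf2, Tnfrsf18 and Tnfrsf4) had UMIs in T cells of both libraries. In sum they had 102 UMIs (447 CPM) in inhibitor and 29 UMIs (261 CPM) in vehicle T cells, against 10.4 CPM in non-members. NK cells had UMIs of 2 of them (147 CPM). Whether any of these T cells was a regulatory T cell was not tested. Cd40lg, the helper ligand that licenses B cells and dendritic cells, was found in 5 of 10 and 1 of 4 CD4 cells, in 4 of 12 and 0 of 2 cells with neither co-receptor, and in 0 of 22 CD8 cells.

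The 4 members outside both groups did not share a profile. A pair of them, 1 from each library, held 426 and 416 UMIs of Prss34, 279 and 256 of Mcpt8 and 61 and 45 of Cpa3, which are basophil and mast cell genes. They had met the rule through 5 and 7 UMIs of Nkg7 with none of the CD3 genes. An inhibitor cell of 23766 UMIs met the rule through 5 UMIs of Nkg7 and held 25 UMIs of Prtn3, 20 of Mpo and 15 of Ctsg, proteases and peroxidase of granulocyte precursors. A vehicle cell of 3999 UMIs held 6 UMIs of Trbc2 and 1 of Cd3g beside 12 of the neuropeptide gene Calca. It also held 2 UMIs each of Cxcr6 and Icos, and 12.5 UMIs per 10000 of a list of group 2 innate lymphoid cell genes.

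Members made up 1.75% of kept cells in the inhibitor library (52 of 2975, exact 95% interval 1.31 to 2.29%) and 0.691% in the vehicle library (15 of 2170, 0.387 to 1.14%). The share was 2.53 times as high in the inhibitor library (1.40 to 4.84). Among kept cells with a UMI of Ptprc, the pan-leukocyte gene Cd45, the shares were 3.68% (51 of 1384) and 1.24% (13 of 1049), a ratio of 2.97 (1.59 to 5.96). Without microglia-marker cells in that denominator the ratio was 2.69 (1.44 to 5.40). With tighter limits on C1q and S100 transcripts, 44 and 8 members were left and the ratio was 4.01 (1.87 to 9.87). Thinning every cell to 2000 UMIs before applying the rule left 40 and 12 members and a ratio of 2.42 (1.25 to 5.07). Among barcodes that failed the cell filter, 0 of 448 and 1 of 353 met the rule.

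Each group was more frequent in the inhibitor library, with intervals that differ in width. T cells were 1.31% (39 cells) and 0.553% (12 cells) of kept cells, a ratio of 2.37 (1.22 to 4.97). NK cells were 0.370% (11 cells) and 0.0461% (1 cell), a ratio of 8.02 (1.17 to 345), resting on the single vehicle cell. CD8 cells stood at a ratio of 2.48 (0.878 to 8.60), CD4 cells at 1.82 (0.526 to 7.97) and T cells with neither co-receptor at 4.38 (0.974 to 40.3), and all 3 intervals include 1. As a part of the members, T cells made up 75.0% and 80.0% and NK cells 21.2% and 6.67%, a ratio of NK shares of 3.17 (0.461 to 137). A share of captured cells also depends on how each cord was dissociated and on the other cells recovered, which was not tested.

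**Figure D2:**
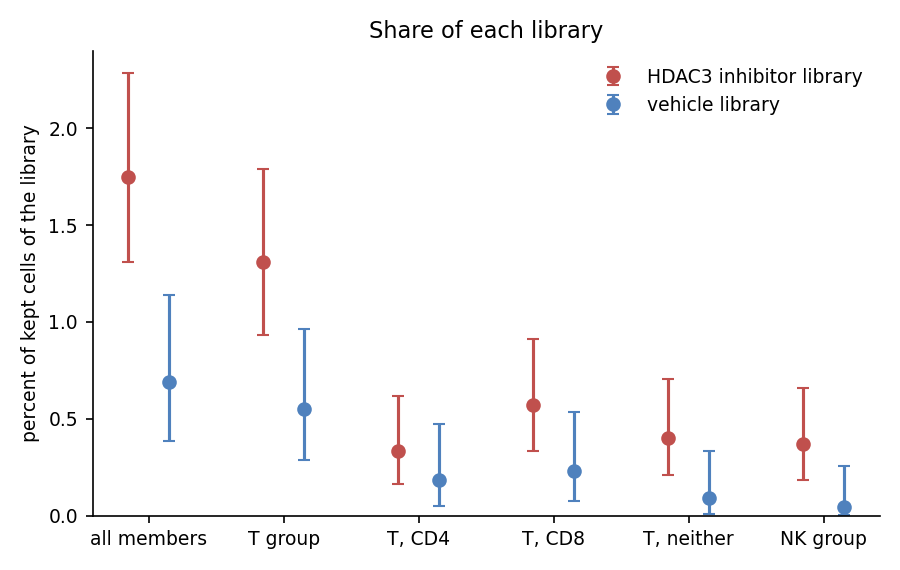
Points give the percent of kept cells of each library that were members, T cells, CD4 and CD8 T cells, T cells with neither co-receptor and NK cells, with exact 95% intervals as bars that cover counting error only. Members stand at 1.75% in the inhibitor library and 0.691% in the vehicle library, and the interval of NK cells in the vehicle library rests on 1 cell.

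Killing genes were read next, because they were not part of the rule apart from Nkg7. NK cells, however, met the rule mostly through Nkg7, itself a killing gene. NK cells low in Nkg7 could have been missed, so the NK levels below describe only the NK cells chosen. The granule proteases granzyme A, B and K and the pore-forming protein perforin were concentrated in the NK group and in the CD8 part of the T group. Their genes lie on mouse chromosome 13 (Gzma at 113093825 to 113100981 and Gzmk at 113171608 to 113225908, both minus strand), chromosome 14 (Gzmb at 56258838 to 56262260, minus strand) and chromosome 10 (Prf1 at 61297833 to 61304680, plus strand) in mm10. The 250 bases before the start of these 4 genes and of the T cell marker Cd3e are shown because these genes divide the members. They are from RefSeq on GRCm38.p6, whose gene starts are not all those of the positions above, and the RefSeq start used for Gzmk lies inside its GENCODE span. They are written 5′ to 3′ on the strand of the gene, at chr13:113100982-113101231, chr14:56262335-56262584, chr13:113180966-113181215, chr10:61297586-61297835 and chr9:45009612-45009861.
Gzma: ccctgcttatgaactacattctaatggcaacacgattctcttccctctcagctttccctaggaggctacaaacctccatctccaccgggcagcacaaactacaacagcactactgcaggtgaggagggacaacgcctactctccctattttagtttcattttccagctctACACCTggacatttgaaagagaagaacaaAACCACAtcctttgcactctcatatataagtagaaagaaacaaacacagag
Gzmb: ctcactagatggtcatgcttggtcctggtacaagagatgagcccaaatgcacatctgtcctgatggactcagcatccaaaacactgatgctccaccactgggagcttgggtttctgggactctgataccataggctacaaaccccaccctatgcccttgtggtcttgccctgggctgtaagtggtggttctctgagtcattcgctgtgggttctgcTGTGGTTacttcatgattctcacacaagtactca
Gzmk: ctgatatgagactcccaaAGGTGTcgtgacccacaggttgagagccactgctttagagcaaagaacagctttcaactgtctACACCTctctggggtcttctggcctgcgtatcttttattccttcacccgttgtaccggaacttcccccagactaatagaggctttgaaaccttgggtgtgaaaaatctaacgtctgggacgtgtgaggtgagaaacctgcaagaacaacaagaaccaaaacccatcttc
Prf1: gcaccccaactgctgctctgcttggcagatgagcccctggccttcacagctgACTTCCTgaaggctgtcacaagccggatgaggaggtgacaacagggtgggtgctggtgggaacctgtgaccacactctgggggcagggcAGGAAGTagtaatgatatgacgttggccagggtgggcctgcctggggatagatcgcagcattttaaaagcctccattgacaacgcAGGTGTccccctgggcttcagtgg
Cd3e: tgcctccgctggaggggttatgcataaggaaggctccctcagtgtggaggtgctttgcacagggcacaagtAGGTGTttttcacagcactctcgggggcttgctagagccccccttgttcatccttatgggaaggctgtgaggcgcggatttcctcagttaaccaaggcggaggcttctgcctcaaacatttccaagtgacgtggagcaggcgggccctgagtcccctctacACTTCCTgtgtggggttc
Capitals mark exact matches, on either strand, to 3 motifs of transcription factor families active in T and NK cells: TGTGGTT (Runx), AGGTGT (T-box) and AGGAAGT (Ets). No matches overlapped. The windows of Cd3d and Cd3g were searched too, which makes 7 windows. The Runx letters were in 2 of 7 windows (Gzma and Gzmb), against 4.4% of the 32851 windows of this length in the RefSeq table. The T-box letters were in 6 of 7 (all but Gzmb), against 11.8% of all windows, and the Ets letters in 3 of 7 (Prf1, Cd3d and Cd3e), against 7.69%. A match is a description of the letters and not a bound site, and these windows were chosen, so the shares are not a test.

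Gzma was carried by every NK cell and by a minority of T cells. In NK cells it had 671 UMIs in 11 of 11 inhibitor cells, or 10543 CPM (UMIs scaled to a fixed library total of 1000000, 9761 to 11372), and 42 UMIs in the single vehicle cell. In CD8 cells it had 141 UMIs in 9 of 17 inhibitor cells (1665 CPM, 1402 to 1964) and 323 UMIs in 3 of 5 vehicle cells (6335 CPM, 5663 to 7065). The largest vehicle values were 138, 102 and 83 UMIs, so 3 cells held the whole vehicle T cell signal. No CD4 cell had a Gzma UMI, 0 of 10 and 0 of 4, and a count of 3 UMIs would be 41.0 and 76.7 CPM there.

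Prf1 separated the groups further. NK cells held 61 Prf1 UMIs in 9 of 11 inhibitor cells (958 CPM, 733 to 1231) and 1 UMI in the vehicle cell. T cells held 6 UMIs in 6 of 39 inhibitor cells (26.3 CPM, 9.64 to 57.2) and 4 UMIs in 2 of 12 vehicle cells (36.0 CPM, 9.81 to 92.2), and all of these cells were CD8. Over both libraries the T level of Prf1 was 0.0323 times the NK level.

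Gzmb and Gzmk were divided in another way. Gzmb had 53 UMIs in 8 of 11 inhibitor NK cells and 1 UMI in the vehicle NK cell. CD8 cells held 63 Gzmb UMIs in 9 of 17 inhibitor cells (744 CPM, 572 to 952) and 37 UMIs in 3 of 5 vehicle cells (726 CPM, 511 to 1000.2). Gzmk had no UMI in any of the 12 NK cells, 39 UMIs in 10 of 17 inhibitor CD8 cells and 17 UMIs in 3 of 5 vehicle CD8 cells. Its T level was at least 3.9997-fold the NK level, taking 3 UMIs over the NK group as the limit.

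Ccl5, a chemokine that draws further T cells and monocytes, was abundant in NK and CD8 cells. It had 1353 UMIs in 11 of 11 inhibitor NK cells (21260 CPM, 20142 to 22423) and 152 in the vehicle NK cell. CD8 cells held 1218 UMIs in 13 of 17 inhibitor cells (14386 CPM, 13589 to 15217) and 1066 in 5 of 5 vehicle cells (20906 CPM, 19670 to 22200.2). The vehicle CD8 cell with endothelial UMIs held 1 Ccl5 and no Gzma UMI among its 19558, and without it the vehicle CD8 levels were 33884 CPM for Ccl5, 10276 for Gzma, 1177 for Gzmb and 541 for Gzmk. Without the inhibitor CD4 cell with endothelial UMIs the Ccl5 level of inhibitor CD4 cells was 275 CPM, against 164 with it. CD4 cells held 12 UMIs in 3 of 10 and 5 UMIs in 1 of 4 cells. At least 20 Ccl5 UMIs stood in 16 of 22 CD8 cells, 11 of 12 NK cells, 3 of 14 T cells with neither co-receptor and 0 of 14 CD4 cells. Of those 16 CD8 cells, 12 held Gzmk, 11 Gzma, 11 Gzmb and 7 Prf1, whereas of those 11 NK cells 11 held Gzma, 10 Prf1, 9 Gzmb and 0 Gzmk.

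UMIs of these genes were rare in cells that should lack them, with Ccl5 as the exception. In non-member cells with microglia markers (388 and 391 cells, median 11342 and 12424 UMIs), a Gzma UMI was found in 0 and 1 cells, Prf1 in 1 and 0, Cd3e in 1 and 0 and Nkg7 in 1 and 0. A Ccl5 UMI was found in 83 (21.4%) and 88 (22.5%) of them, but in 10 of 516 (1.94%) and 6 of 354 (1.69%) endothelial-marker cells (median 9393.5 and 8706 UMIs). Some of these cells held many Ccl5 UMIs, up to 247 in a microglia-marker and 242 in an endothelial-marker cell, so these shares are no plain background. The 4 of 14 CD4 cells with Ccl5 held at most 5 UMIs each. After thinning to 2000 UMIs per cell, with 5 shallower inhibitor T cells left out, Gzma was found in 11 of 12 NK, 9 of 20 CD8 and 0 of 12 CD4 cells, and Ccl5 in 12 of 12, 15 of 20 and 2 of 12.

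**Figure D3:**
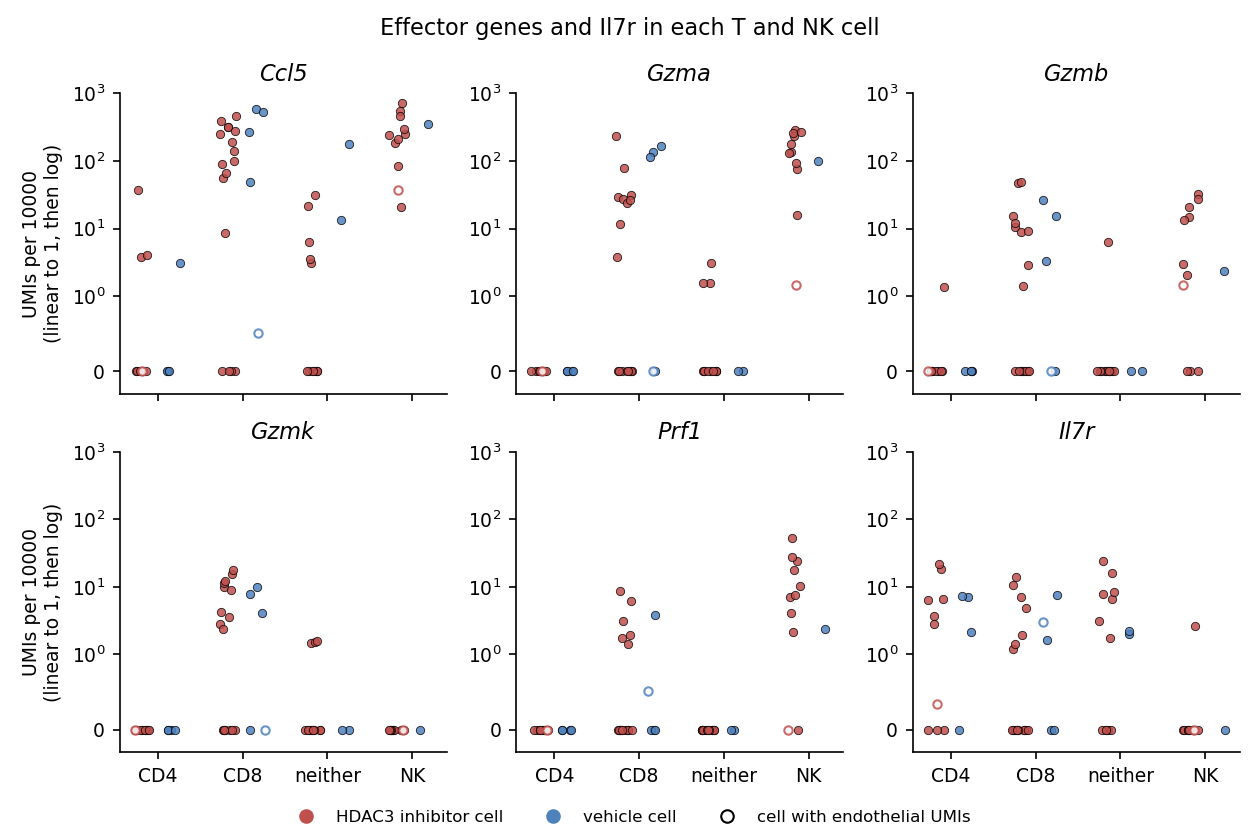
Each point is 1 T or NK cell, with its UMIs of Ccl5, Gzma, Gzmb, Gzmk, Prf1 or Il7r per 10000 UMIs of the cell on an axis that is linear to 1 and logarithmic above, by CD4 and CD8 T cells, T cells with neither co-receptor and NK cells, coloured by library, with open symbols for cells with endothelial UMIs. CD4 cells lie at 0 for Gzma, Gzmk and Prf1, and NK cells lie at 0 for Gzmk.

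Within CD8 cells, Ccl5 and the killing genes were spread unevenly. Ccl5, Gzma, Gzmb, Gzmk and Prf1 in sum made up a median of 116 UMIs per 10000 in inhibitor CD8 cells (0 to 507) and 425 in vehicle CD8 cells (1.02 to 736). CD4 cells had a median of 0 in both libraries, with a highest value of 37.7 in the inhibitor and 3.14 in the vehicle library. In CD8 cells of both libraries, most UMIs of this sum were of the chemokine gene Ccl5, so it mainly describes Ccl5. Leaving out the CD8 cell with endothelial UMIs, 4 CD8 cells, all from the inhibitor library, held Ccr7, the receptor for homing to lymph nodes. They had 0 to 9 Ccl5 UMIs (median 0), and 3 of 4 held Il7r, the survival receptor of naive and memory T cells. The 17 CD8 cells without Ccr7 had 0 to 427 Ccl5 UMIs (median 78), and 11 of them held Gzma. This split was chosen after the values were seen.

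Summed over libraries, 44 of 1446 genes were at least 4-fold higher in CD8 than in CD4 cells (3.04%) and 35 were at least 4-fold higher in CD4 cells (2.42%). Only genes with at least 20 UMIs over both sets of cells were compared. Gzma had 464 UMIs against 0 and was at least 128-fold higher in CD8 cells, with 3 UMIs over the CD4 cells as the limit. Ccl5 stood at a ratio of 111 (69.2 to 191), with 2284 against 17 UMIs. Plac8 had 103 UMIs in 13 CD8 cells and none in CD4 cells. Of 13 effector genes with enough UMIs, 8 were called higher in CD8 cells and none in CD4 cells, with a median log2 ratio of 2.35 against −0.01 over all 1446 genes. Effector genes that were not called included Ltb, a lymphotoxin chain (log2 ratio 0.20), Ifng (0.31) and Srgn, the granule proteoglycan (0.07).

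NK-type receptors were shared by CD8 cells. Of 7 such genes compared, 5 were at least 4-fold higher in CD8 than in CD4 cells, with a median log2 ratio of 4.48, or 2.60 with genes at 0 set to their 3-UMI limit. Klrd1, the partner chain of the NKG2 receptors, had 44 UMIs in 16 of 22 CD8 cells and 1 UMI in 1 of 14 CD4 cells, a ratio of 36.4 (6.20 to 1470). Klre1 had 31 UMIs in 11 CD8 cells and 0 in CD4 cells, and Klrc2 22 UMIs in 12 CD8 cells and 0 in CD4 cells. All 12 MHC class I genes lay above 0, none past 4-fold, with a median of 0.48. At least 2 UMIs of the 8 NK receptor genes were found in 6 inhibitor and 5 vehicle T cells, 8 of them CD8 cells and none a CD4 cell.

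Of the 35 genes higher in CD4 cells, 23 had more than 50% of their CD4 UMIs in a single cell. Without the cells that held endothelial UMIs, 7 of 1032 genes were at least 4-fold higher in CD4 cells (0.678%) and 30 in CD8 cells (2.91%). Ctla4, an inhibitory receptor that competes with Cd28, had 18 UMIs in 7 CD4 cells and 2 UMIs in 2 CD8 cells, a ratio of 0.0919 for CD8 over CD4 (0.0103 to 0.384), with 50% of the CD4 UMIs in 1 cell. The effector list kept 8 of 13 genes called higher in CD8 cells without those cells, with a median of 2.13.

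Between the whole groups, 150 of 2432 genes were at least 4-fold higher in T cells (6.17%) and 42 at least 4-fold higher in NK cells (1.73%). Without the cells that held endothelial UMIs the counts were 143 of 1873 (7.63%) and 35 of 1873 (1.87%). The NK side rests on 12 cells, 11 of them from the inhibitor library, so it is mostly 1 library. Genes used to cut the groups were left out of those named.

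On the T side, the 10 genes named by the rule included Lat, of T cell receptor signalling, and Il7r, of T cell survival. Lat, the adaptor that links the receptor to downstream enzymes, had 104 UMIs in 40 T cells and 1 UMI in NK cells, a ratio of 20.8 (3.65 to 829). Il7r had 106 UMIs in 29 T cells and 1 in NK cells, a ratio of 21.2 (3.72 to 845). Ms4a6b stood at 18.7 (5.10 to 156), a log2 ratio of 4.22, or 4.87 without the cells that held endothelial UMIs. Ifi27l2a, an interferon-inducible gene, had 342 UMIs in 32 T cells and none in NK cells, at least 22.8-fold higher. Plac8 was at least 8.13-fold, Cd8b1 at least 6.67-fold, Gpr183 (an oxysterol receptor that guides cell migration) at least 4.6-fold, Rgs10 at least 3.73-fold and Klk8 at least 3.33-fold higher, each with no UMI in NK cells. Genes with no UMI on 1 side were ranked and called with 0.5 added to both sums. At the 3-UMI limit Rgs10 and Klk8 were below 4-fold. Gzmk, also among the 10 named genes, was just under it at 3.9997-fold. Of 70 called genes with no UMI in NK cells, 6 reached 4-fold at that limit.

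On the NK side stood the adaptors through which activating NK receptors signal. Tyrobp had 187 UMIs in 12 of 12 NK cells and 23 UMIs in 6 of 51 T cells, a T over NK ratio of 0.0246 (0.0152 to 0.0380). Fcer1g had 176 UMIs in 12 NK cells and 19 in 9 T cells, a ratio of 0.0216 (0.0127 to 0.0347). Irf8, a transcription factor, had 90 UMIs in 11 NK cells and 9 in 3 T cells, a ratio of 0.020. The T group cell with 14 NK receptor UMIs held 7 of these 9, and 9 of the Fcer1g and 8 of the Tyrobp UMIs of T cells. Gzma stood at 0.131 (0.117 to 0.148). Serpinb9, an inhibitor of granzyme B, had 53 UMIs in 12 of 12 NK cells and 47 in 18 T cells (0.177, 0.117 to 0.268). Atp1b1, Cd9, Rnf130 and Arsb were also named, with ratios of 0.0556, 0.10, 0.183 and 0.185. Without the cells that held endothelial UMIs, the log2 ratio of Cd9 was −4.68 against −3.32.

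By list, 2 of 16 effector genes were called higher in T cells and 2 in NK cells, with a median log2 ratio of −1.2 for T over NK against −0.08 over all genes. Of 18 NK and innate-like receptor genes, 8 were called higher in NK cells and none in T cells (median −1.93), which partly repeats the cut. Of 16 interferon response genes, 6 were called higher in T cells and none in NK cells (median 1.29, or 1.0 at the 3-UMI limit). Without the cells that held endothelial UMIs, 9 of 13 were called higher in T cells (median 2.88, or 1.26 at the limit). Of 10 cell cycle genes, 5 were called higher in T cells (median 1.78, or 1.10 at the limit). The typical cell went the other way, with a median of 15.5 UMIs of this list per 10000 in T cells and 19.9 in NK cells. At least 60 per 10000 were held by 5 of 51 T cells and 0 of 12 NK cells. Among 14 T cell receptor signalling genes, 3 were called higher in T cells and none in NK cells. They were divided, with 8 above 0 and 6 below (median 0.12), and their median was −0.14 without the cells that held endothelial UMIs.

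Between libraries, Hdac3 itself was too sparse to compare. Members held 9 UMIs in 8 of 52 inhibitor cells (27.7 CPM, 12.7 to 52.5) and 4 UMIs in 4 of 15 vehicle cells (30.7 CPM, 8.36 to 78.6), a ratio of 0.902 (0.25 to 4.01). Its transcript is no measure of enzyme inhibition.

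Across the members, 227 of 2737 genes were at least 2-fold higher in the inhibitor library (8.29%) and 152 at least 2-fold lower (5.55%), and the median log2 ratio of all genes was 0.07. These are sums over 52 and 15 cells, and a difference in the mix of cells is part of them. In T and NK cells without endothelial UMIs (48 and 12 cells), 167 of 1873 genes were at least 2-fold higher (8.92%) and 91 at least 2-fold lower (4.86%).

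Among the 10 named genes on the higher side were several receptors of activated or tissue T cells. Icos, a costimulatory receptor, had 71 UMIs in 24 inhibitor cells and 8 UMIs in 6 vehicle cells, a ratio of 3.56 (1.71 to 8.56). Cxcr6, a chemokine receptor of tissue-resident T cells, had 35 UMIs in 14 cells and 4 in 3 cells (3.51, 1.25 to 13.6). Ccr2, the receptor for Ccl2, had 38 UMIs in 22 cells and 5 in 4 cells (3.05, 1.2 to 9.91). In T cells alone the log2 ratios of these 3 genes were 2.5, 3.09 and 1.91. The kinds of T cell also differed, with neither co-receptor in 30.8% of inhibitor and 16.7% of vehicle T cells. Whether this mix contributed was not tested. Icos had 6, Cxcr6 had 2 and Ccr2 had 4 UMIs in vehicle T cells.

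The other named genes on that side had varied functions. Rgs1, which dampens chemokine receptor signalling, had 180 UMIs in 34 inhibitor cells and 23 in 7 vehicle cells, a ratio of 3.14 (2.03 to 5.07). Sh2d1a, an adaptor of SLAM receptors, had 39 and 4 UMIs (3.91, 1.41 to 15.1), and Fgl2 55 and 6 UMIs (3.67, 1.58 to 10.4). Capg, an actin-capping protein, had 43 UMIs in 17 cells and 3 in 3 cells (5.74, 1.84 to 28.9), and Atxn7l3b 40 and 5 UMIs (3.21). Irf8 had 92 and 9 UMIs (4.10, 2.07 to 9.24), but T cells held 8 and 1 of these, so most came from NK cells, which were 11 and 1. The T group cell with 14 NK receptor UMIs held 7 of those 8. Ifit3, an interferon-induced gene, had 39 UMIs in 7 cells and 5 in 2 cells (3.13, 1.23 to 10.2). In T and NK cells without endothelial UMIs it had 38 and 1 UMIs, a log2 ratio of 3.91 against 1.64 over all members. In the same cells the log2 ratio of Cxcr6 was 2.79 against 1.81 and that of Icos 2.47 against 1.83.

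The 10 named genes on the lower side belonged to several functions. Smc4, a subunit of the condensin that compacts chromosomes, had 29 UMIs in 19 inhibitor cells and 43 UMIs in 12 vehicle cells, a ratio of 0.270 (0.163 to 0.443). Nasp, a histone chaperone, had 31 and 28 UMIs (0.444, 0.258 to 0.768). Bax, a promoter of apoptosis, had 33 and 32 UMIs (0.413, 0.246 to 0.694). Uba2, of the SUMO-activating enzyme, stood at 0.372, Csnk1g2 at 0.382, Cnot1 at 0.401, Ctbp1, a corepressor, at 0.426, Acap1 at 0.426, Cr1l, a complement regulator, at 0.427 and Mtpn at 0.441. These 10 genes had 14 to 43 vehicle UMIs each. In T and NK cells without endothelial UMIs, Uba2 had 5 and 13 UMIs, a log2 ratio of −2.72 against −1.43 over all members.

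Cell cycle genes were lower in the inhibitor library. All 13 cell cycle genes with enough UMIs were below 0 in the inhibitor library and 8 were at least 2-fold lower, with a median log2 ratio of −1.27. In T and NK cells without endothelial UMIs, 10 of 10 were below 0 and 9 at least 2-fold lower (median −1.59). Mki67, a proliferation marker, had 8 UMIs in 4 inhibitor cells and 28 UMIs in 4 vehicle cells. Top2a, the topoisomerase of dividing cells, had 18 UMIs in 5 cells and 38 in 5 cells. In T cells alone the counts were 6 and 23 UMIs of Mki67 and 9 and 35 of Top2a.

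This count rested on few cells. At least 5 UMIs of Mki67 and Top2a in sum were found in 1 of 50 inhibitor and 3 of 13 vehicle T and NK cells. The inhibitor cell was a CD8 cell with 2 Mki67 and 7 Top2a UMIs. A second inhibitor T cell, with 2 and 2 UMIs, lay just under that count and held 88 UMIs of the cell cycle list. At least 60 UMIs of the list per 10000 were found in 2 inhibitor and 3 vehicle T cells. The vehicle cells were a T cell with neither co-receptor (14 and 15 UMIs), a CD8 cell (7 and 13) and a CD4 cell (2 and 6). Vehicle T cells were also deeper, with a median of 8404.5 UMIs against 5470. After thinning to 2000 UMIs, Mki67 was found in 0 of 34 inhibitor and 2 of 12 vehicle T cells. The cell cycle list made up a median of 14.3 UMIs per 10000 in inhibitor T cells (0 to 121) and 20.6 in vehicle T cells (8.94 to 184), so the libraries overlapped.

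Interferon response genes stood higher in the inhibitor library once the cells with endothelial UMIs were left out. That exclusion was not planned beforehand, and it removed the vehicle T cell with the highest share of this list. Over all members, 4 of 17 were at least 2-fold higher and none lower (median 0.47). Without those cells and the 4 members outside both groups, 13 of 13 were above 0 and 9 at least 2-fold higher (median 1.55). Isg15, a ubiquitin-like protein induced by interferon, had 139 and 35 UMIs over all members (ratio 1.59, 1.09 to 2.38) and 128 and 11 UMIs without them (4.61, 2.49 to 9.46). Slfn2 had 126 and 17 UMIs without them (2.93, 1.76 to 5.20) and Zbp1, a sensor of nucleic acids, 48 and 4 (4.75, 1.74 to 18.1). The vehicle cell with endothelial UMIs alone held 17 of the 35 vehicle Isg15 UMIs.

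Again a minority of cells held the signal. The interferon response list made up at least 100 UMIs per 10000 in 7 of 39 inhibitor T cells, 4 of them CD8 cells and 3 with neither co-receptor, with a highest value of 240. Among vehicle T cells the only cell above 100 was the one with endothelial UMIs, at 112, and the others were at 53.4 or below. The median over T cells without endothelial UMIs was 20.7 in the inhibitor library (3.84 to 240) and 11.3 in the vehicle library (0 to 53.4), so the groups overlapped. NK cells without endothelial UMIs lay at 2.03 to 16.1 in the inhibitor library and at 0 in the vehicle cell.

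**Figure D4:**
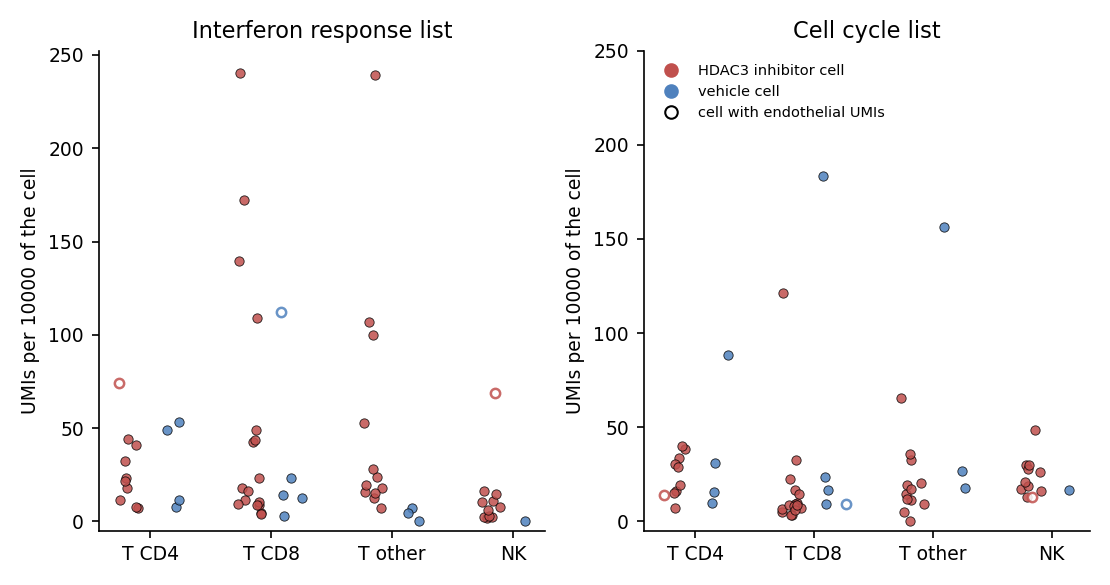
Each point is 1 T or NK cell, with the UMIs of the interferon response list (left) or of the cell cycle list (right) per 10000 UMIs of the cell, by CD4, CD8 and other T cells and NK cells. Open symbols are the 3 cells with endothelial UMIs, and the cells above 100 in the left panel are from the inhibitor library apart from 1 open vehicle symbol at 112.

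Other lists had smaller or mixed counts of called genes. Of 17 effector genes, 3 were at least 2-fold higher and 2 lower in the inhibitor library (median −0.03), and none of the 12 MHC class I genes passed 2-fold (median −0.09). The higher genes were Prf1, Fasl and Spp1 and the lower ones Ccl4 and Xcl1. Prf1 had 67 and 6 UMIs, but in T cells its log2 ratio was −0.45. Gzma (816 and 365 UMIs, 2509 and 2800 CPM) and Ccl5 (2640 and 1399 UMIs, 8118 and 10734 CPM) stood at ratios of 0.896 (0.791 to 1.02) and 0.756 (0.709 to 0.807), and in CD8 cells Gzma was 1665 and 6335 CPM. Of 14 T cell receptor signalling genes, Icos, Cd28 and Cd247 were at least 2-fold higher and none lower (median 0.41). Of 19 homing and residency genes, 3 were at least 2-fold higher, among them Cxcr6 and Ccr2, and none lower (median 0.40). Of 18 NK and innate-like receptor genes, 5 were at least 2-fold higher (median 0.45), in a library where 21.2% of members were NK cells against 6.67%. Of 17 activation and immediate-early genes, Rel was at least 2-fold higher and Fos, Fosb and Nr4a1 lower (median −0.08), and the median was 0.54 in T and NK cells without endothelial UMIs. Of 16 lineage transcription factors, Maf was higher and Tcf7, Zeb2 and Ikzf1 lower (median 0.18), and of 8 cytokine receptor genes, Il18r1 and Il18rap were higher and Il21r lower (median 0.27). No gene passed 2-fold among 10 of glycolysis (median 0.01), 3 of histone deacetylases and their corepressor (median −0.50) or the 1 tissue repair gene tested. In T and NK cells without endothelial UMIs, Hdac1 had 11 and 10 UMIs and was called lower, 1 of 2 genes of its list (median −0.78). The checkpoint gene with enough UMIs was Ctla4, with 28 and 2 UMIs (5.61, 1.42 to 48.6).

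**Figure D5:**
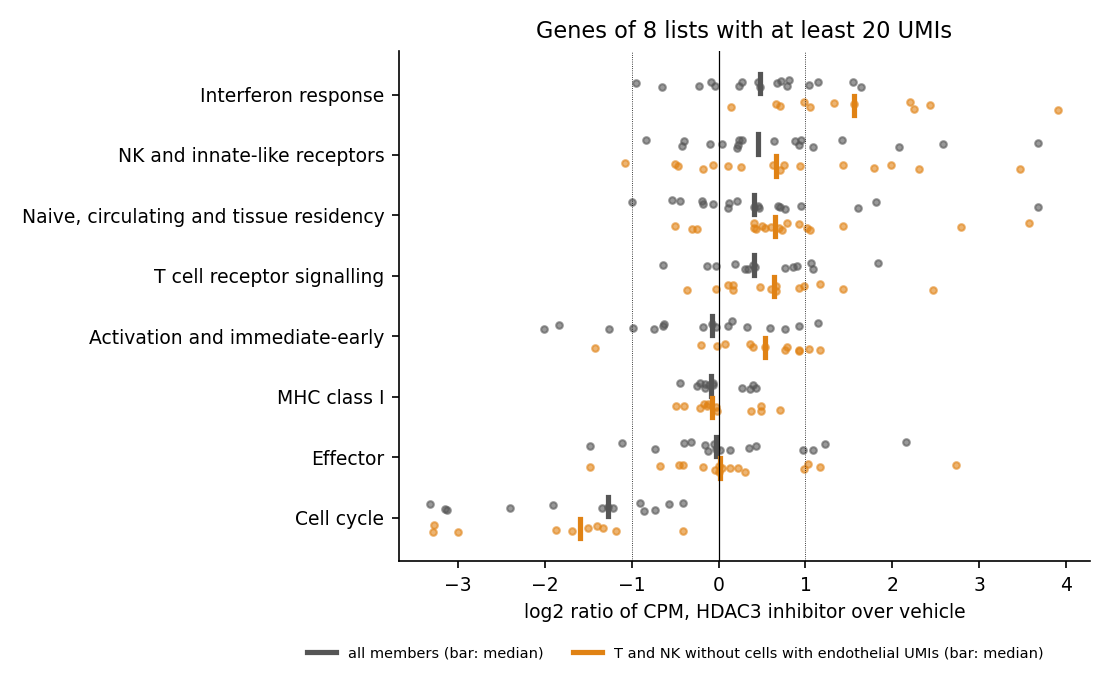
Each point is 1 gene of a list with at least 20 UMIs over the cells compared, placed by its log2 ratio of CPM in the inhibitor over the vehicle library. Ratios are over all members and in T and NK cells without endothelial UMIs, with the median of each list marked. All 13 cell cycle genes lie below 0 over all members. The interferon response median is 0.47 for 17 genes over all members and 1.55 for 13 genes in T and NK cells without endothelial UMIs.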

How the data were processed

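The 2 deposited matrices hold whole-number UMI counts per gene and barcode, made by the authors. Per the file headers the software was Cell Ranger 3.0.2, and per the submitters' processing notes the build was mm10 and Seurat was also used. How reads matching several genes were counted was not stated. Barcodes were filtered and members selected by the stated limits, and Scrublet (scanpy 1.11.5) called doublets without removing them. Counts were summed over cells and given as CPM with exact Poisson intervals, shares with Clopper-Pearson intervals and ratios with exact conditional binomial intervals. Genes with at least 20 UMIs over the cells compared were used, leaving out mitochondrial, ribosomal, haemoglobin, Xist, Y-linked and unnamed gene models. A gene was called at 2-fold between libraries and at 4-fold between cell groups. Named genes were the 10 highest and 10 lowest ratios among those with at least 100 CPM and 5 cells in the higher group, at most 25% of its UMIs in 1 cell and under 10 times that level in other cells. Some genes that met the rule are not reported here. A gene with no UMI on 1 side was ranked, called and counted in list medians with 0.5 added to both sums, and its fold is printed against a limit of 3 UMIs. Cells were thinned to 2000 UMIs to compare shares with a UMI. TMM factors (edgeR 4.0.16) were an alternative scaling. Scripts were tested on simulated data. Gene positions are from GENCODE for mm10 and sequences from RefSeq for GRCm38.p6. The members and the gene lists were chosen with earlier results of these data known.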

Additional observations from a re-analysis of the deposited data

How the results depend on the processing

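The direction of the member share held under 10 of 10 alternatives, and the T and NK shares of members moved by less than their intervals under 10 of 10 and 12 of 12. No share and no named gene turned in direction, but list medians near 0 did. In T cells alone the NK receptor list went from 0.45 to −0.10 and the lineage factor list from 0.18 to −0.02. With cells weighted alike MHC class I went from −0.09 to 0.30, and in T and NK cells without endothelial UMIs the activation list went from −0.08 to 0.54. Of 227 genes at least 2-fold higher and 152 at least 2-fold lower in the inhibitor library, weighting each cell alike gave 283 and 233, of which 149 and 113 were shared. A minimum of 10 UMIs gave 669 and 412, and a minimum of 50 gave 44 and 28, by comparing more or fewer genes. T cells alone gave 148 and 118, CD8 cells alone 68 and 75 (11 and 16 shared), CD4 cells alone 124 and 36 (23 and 1 shared), and T and NK cells without endothelial UMIs gave 167 and 91. TMM factors of 0.967 and 1.03 gave 271 and 117 and moved the median log2 ratio from 0.07 to 0.17. Between T and NK cells, minima of 10 and 50 UMIs gave 362 and 39 genes higher in T cells and 131 and 15 higher in NK cells. Between CD8 and CD4 cells they gave 110 and 12 genes higher in CD8 cells and 113 and 6 higher in CD4 cells, and 7 in CD4 cells without endothelial UMIs. Beyond the fewer cells or genes compared, the cause was not tested. Of 210 values of single genes and 139 of lists under alternatives, 205 and 134 moved by less than their spread. With 15 vehicle members and 1 vehicle NK cell, depth limits every vehicle value, and with 1 library per group no replicate could be left out. No paired analysis was possible because each group has 1 library.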

Other observations

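Most cytokine genes other than Ifng, Ltb and Xcl1 were scarce in the T and NK groups. Ifng, the type II interferon that activates macrophages, had 32 UMIs in 12 of 39 inhibitor T cells (140 CPM, 95.8 to 198) and 6 UMIs in 4 of 12 vehicle T cells (54.0 CPM, 19.8 to 118), and was found in 5 of 14 CD4 and 7 of 22 CD8 cells. Ltb had 122 UMIs in 30 inhibitor T cells and 46 in 10 vehicle T cells. Il10, Il4, Il13 and Csf2 had no UMI in any T or NK cell, Il17a had 1, and Tnf had 2 in each library. Areg, a growth factor of tissue repair, had 3 UMIs in 2 inhibitor T cells and 6 UMIs in 1 vehicle T cell. Xcl1, a chemokine for dendritic cells, had 18 UMIs in 4 inhibitor T cells, 19 UMIs in 5 inhibitor NK cells and 31 UMIs in 1 vehicle T cell, which was the cell with 14 Mki67 UMIs.

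Gamma-delta T cells, which carry another form of the receptor, could be listed only as candidates. These, with at least 2 UMIs of the gamma or delta constant genes and none of Trac, numbered 2 of 39 inhibitor and 2 of 12 vehicle T cells. The inhibitor candidates held 13 and 22 UMIs of Trdc, the delta constant gene, with 4 and 2 of Cxcr6, no Ccl5, and the only Il17a UMI of the data set's T cells in 1 of them. The vehicle candidates held 2 and 7 UMIs of Trdc with 275 and 163 of Ccl5. Trbc2 had UMIs in every candidate, 13 and 2 in the inhibitor and 18 and 16 in the vehicle candidates. The vehicle candidate with 2 Trdc UMIs held 3 of Cd8a and is counted among the CD8 cells. Genes chosen outside the naming rule after their values were seen included Maf, with 29 UMIs in 14 inhibitor cells and 1 UMI in a vehicle cell (ratio 11.6, 1.93 to 475), and Tcf7, a factor of naive and memory T cells, with 22 and 19 (0.464, 0.240 to 0.906).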
